A study of Mus musculus with 9 samples.

Results

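A set of 10 genes of TGF-beta and bone morphogenetic protein (BMP) signalling was followed through sorted cells of mouse bile duct organoids: the targets Id1, Id2 and Id3, the inhibitors Bambi, Smad6 and Smad7, the receptors Tgfbr1, Tgfbr2 and Bmpr1a, and the ligand Tgfb2. They were found by gene name in the count files, where each name matched 1 of 32137 genes, and all 10 were among the 17011 genes that passed the filter on low counts. All organoids came from 1 male Axin2CreERT2+/-; R26-LSL-tdTom+/- mouse of mixed genetic background, so every group carried both alleles. In this genotype, cells that express Axin2, a target gene of Wnt signalling, make a Cre recombinase that 4-hydroxytamoxifen activates and that switches on the red reporter tdTomato for good. Organoids were grown for 2 to 4 days, differentiated for 11 days, and given 3 uM dexamethasone and 500 nM 4-hydroxytamoxifen for the last 24 h. Rspo1, an R-spondin that amplifies Wnt signals at the cell surface, was added at 100 ng/ml in that period to 2 of the 3 groups. The untreated group held tdTomato-negative cells of organoids without Rspo1. The Rspo1-negative and Rspo1-positive groups held the tdTomato-negative and tdTomato-positive cells of organoids with Rspo1. Each group had 3 RNA-sequencing libraries, 1 each from passages 5, 6 and 10. No tdTomato-positive cells without Rspo1 were among these samples, so Rspo1-positive and untreated cells differ in both treatment and sorting gate, and effects of the 2 cannot be told apart in that comparison.

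TGF-beta and BMP ligands bind pairs of type II and type I receptor kinases, and the type I kinase phosphorylates Smad proteins, which enter the nucleus with Smad4. BMP signalling switches on the Id genes within hours, and both branches switch on their own inhibitors. In the liver, TGF-beta is known for restraining the growth of epithelial cells and for driving fibrosis, and BMP for control of iron metabolism. The published differentiation protocol that the labels cite is known to include a small-molecule inhibitor of the TGF-beta type I receptor. The labels themselves do not list the ingredients of the medium.

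RefSeq promoter windows, from 250 bases before to 50 after a transcript start on GRCm38.p6, were matched by symbol for 7 of the 10 genes. The 250 bases before the start are shown for Id2 and Id3, which were both lowest at passage 6 in every group, with any searched motif in capitals. Gene spans printed further below come from GENCODE, and the stretches of Id2, Id3 and Bmpr1a lie inside those spans.
Id2, chr12:25096093-25096342, minus strand: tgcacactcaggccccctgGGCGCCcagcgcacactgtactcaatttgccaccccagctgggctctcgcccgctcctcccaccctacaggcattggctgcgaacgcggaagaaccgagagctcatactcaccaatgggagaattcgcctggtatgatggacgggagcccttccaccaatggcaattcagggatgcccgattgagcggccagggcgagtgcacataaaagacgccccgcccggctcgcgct
Id3, chr4:136143572-136143821, plus strand: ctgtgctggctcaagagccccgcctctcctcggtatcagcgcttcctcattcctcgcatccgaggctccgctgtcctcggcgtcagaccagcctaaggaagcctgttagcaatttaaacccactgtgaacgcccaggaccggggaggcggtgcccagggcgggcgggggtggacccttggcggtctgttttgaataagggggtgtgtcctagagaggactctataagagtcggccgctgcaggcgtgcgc
Both stretches are 62.8% G and C. Of the motifs searched on both strands, GGCGCC, a GC-rich element bound by Smads of the BMP branch, was in the windows of Id2, Tgfbr1 and Bmpr1a, and in 11.9% of all 32851 windows. The palindrome GTCTAGAC, an optimal Smad-binding sequence, was in that of Smad6 and in 0.213% of all windows. The forms CTTTGAT and CTTTGAA of the motif of TCF and LEF, the factors of Wnt signalling, were in no window of the 7 genes and in 3.73% and 5.14% of all. No searched motif shares its letters with another at these places, and a match is a description of the sequence only. The matches in Smad6, Tgfbr1 and Bmpr1a are shown with the bases around them.
Smad6, chr9:64022045-64022074, minus strand: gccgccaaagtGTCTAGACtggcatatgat
Tgfbr1, chr4:47352977-47353006, plus strand: ggctggagtaaaGGCGCCcagcggtgaggg
Bmpr1a, chr14:34502727-34502756, minus strand: tgcgcgcgcgccGGCGCCtcttgctcgccc

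Total counts per library ranged from 23423979 to 37351448. CPM, the unit of levels per library below, divides counts by the TMM-adjusted library size. Axin2, the gene behind the reporter, was at 1.32 to 5.96 CPM in untreated, 44.4 to 124.2 in Rspo1-negative and 75.7 to 154.5 in Rspo1-positive libraries. Its RNA thus rose in reporter-negative cells too, by 4.87 on the log2 scale over untreated cells (edgeR adjusted p = 0.0011). The sorting gates of Rspo1-treated organoids overlapped in Axin2 and were only 0.26 apart (edgeR adjusted p = 0.733). Reporter-negative cells with Rspo1 were therefore not low in Axin2 RNA. All 8 biliary markers were expressed, with summed levels of 3450 to 4224 FPKM in untreated, 3568 to 4417 in Rspo1-negative and 3031 to 3099 in Rspo1-positive libraries. Of 9 fibroblast and stellate markers 7 were analysed and none passed the filter; their sum was at most 0.0779, 0.101 and 0.0945 FPKM in the 3 groups, and Lum was at 0 throughout. Of 6 endothelial markers 5 were analysed and 1 passed, and their sum was at most 0.0965, 0.122 and 0.098 FPKM, with Cdh5 at 0. Of 6 immune markers 5 were analysed and 2 passed; they summed to 16.0 to 27.4, 15.3 to 27.6 and 13.5 to 17.75 FPKM, nearly all of it Cd68 and Csf1r, while the pan-leukocyte gene Ptprc stayed at or below 0.024 FPKM. Hepatocyte markers, of which 4 of 8 passed the filter, summed to 174 to 423, 253 to 513.5 and 191 to 299 FPKM. Nearly all of that was Ttr and Hnf4a, while Alb was at 1.92 to 7.38 FPKM. Cyp3a11, Cyp2e1, Serpina1c and Tat stayed at or below 0.173 FPKM. The sum of 10 proliferation genes moved with the groups, at 41.8 to 72.3 FPKM in untreated, 97.7 to 122 in Rspo1-negative and 178 to 233 in Rspo1-positive libraries, and its part in the results below was not tested. In sorted but bulk samples, fewer cells of a type and less RNA per cell cannot be told apart.

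Per transcript length, the BMP targets Id2 and Id1 were the most abundant of the 10 genes. In untreated cells the mean level was 256 ± 31.6 FPKM (SD, n = 3) for Id2 and 233 ± 20.7 FPKM (SD, n = 3) for Id1, above 98.8% and 98.7% of the genes tested, and their ranges overlapped. Id3, the third Id gene, followed at 33.0 ± 13.1 FPKM and overlapped with Tgfbr2, the type II receptor of TGF-beta, at 21.1 ± 1.80 FPKM. Bmpr1a, a type I receptor of BMP, was at 15.9 ± 2.66 FPKM, and Tgfbr1, the type I receptor of TGF-beta, at 9.02 ± 0.813 FPKM. The inhibitory Smads followed with 7.01 ± 1.09 FPKM for Smad7 and 4.86 ± 0.341 FPKM for Smad6, and these 4 neighbours were apart from each other in range. Bambi, a decoy receptor that lacks a kinase domain, at 1.27 ± 0.0882 FPKM, and Tgfb2, at 1.03 ± 0.180 FPKM, came last and overlapped. Id1 and Id2 overlapped in every group. Elsewhere the order had 2 shifts in the Rspo1 groups: Tgfbr1 stood below both inhibitory Smads in Rspo1-negative cells, at 3.06 ± 0.568 FPKM, and Bambi below Tgfb2 in Rspo1-positive cells, at 0.533 ± 0.0758 FPKM against 1.13 ± 0.223 FPKM. Bambi and Tgfb2 rest on few reads, 68 to 245 and 97 to 257 counts per library.

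**Figure D1:**
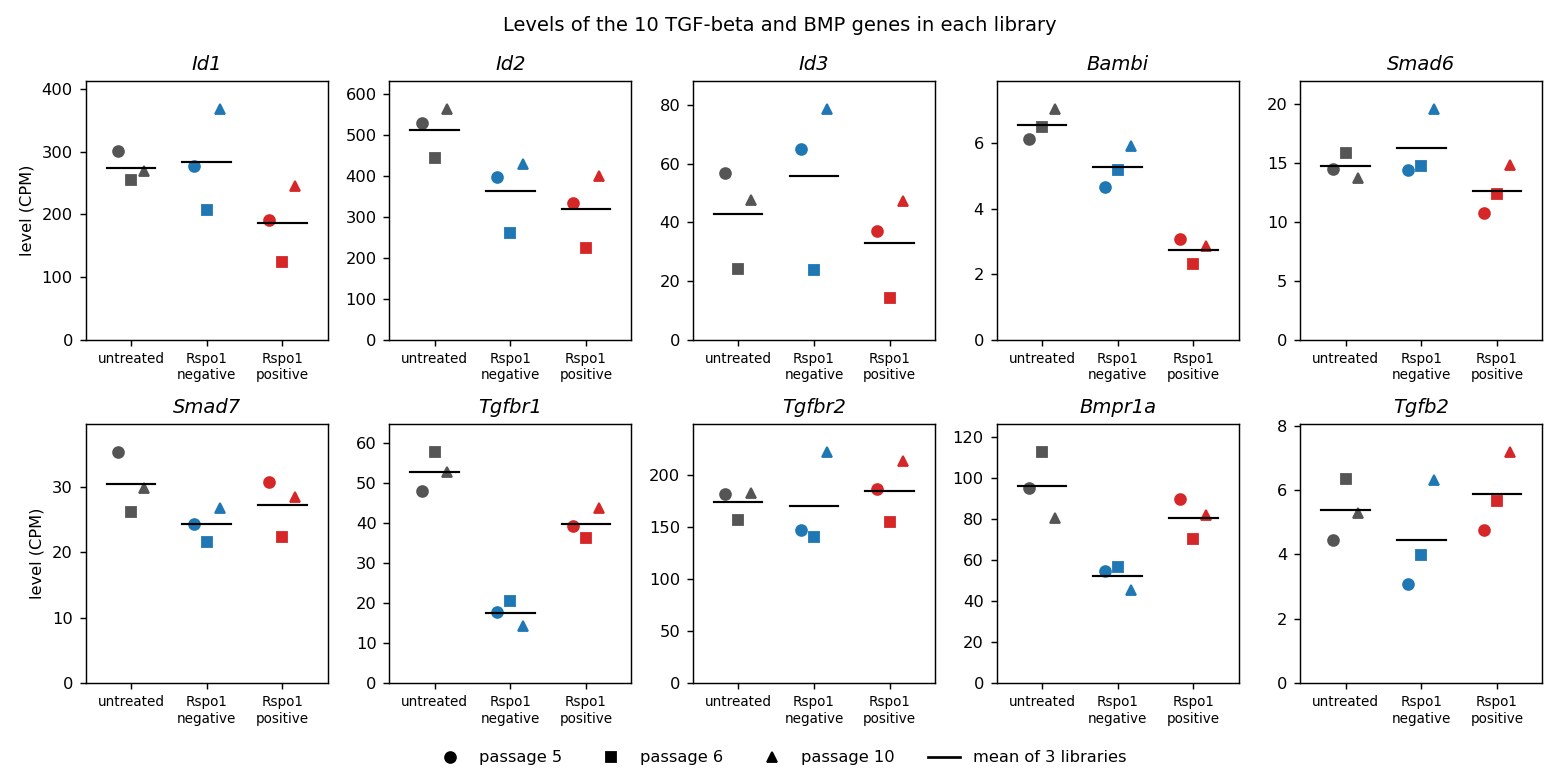
Level of each of the 10 genes in every library, in CPM on a linear axis from 0, by group; marker shapes give the passage and black lines the mean of 3 libraries. Bambi is lowest in all 3 Rspo1-positive libraries, 2.29 to 3.08 CPM, and Tgfbr1 in all 3 Rspo1-negative libraries, 14.1 to 20.5 CPM.

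Bambi fell in the reporter-positive cells against both other groups. BAMBI sits in receptor complexes without signalling and so dampens TGF-beta and BMP signals, and its gene is known as a target of both pathways and of Wnt signalling in other cells. Bambi (ENSMUSG00000024232, chromosome 18, 3507923 to 3516404, plus strand, GRCm38) had 6.12, 6.49 and 7.05 CPM at passages 5, 6 and 10 of the untreated group. In Rspo1-negative cells it had 4.66, 5.18 and 5.93 CPM, and in Rspo1-positive cells 3.08, 2.29 and 2.85 CPM. In CPM the 3 groups did not overlap with each other, with untreated cells highest and Rspo1-positive cells lowest. In Rspo1-positive cells Bambi was below the untreated level, with a log2 fold change of -1.25 (SE 0.21, 0.419-fold, adjusted p = 0.0061 by the quasi-likelihood test of edgeR, adjusted after Benjamini and Hochberg), in 3 of 3 passages. Against Rspo1-negative cells it was lower by -0.93 (SE 0.21, edgeR adjusted p = 0.0113), again in 3 of 3 passages. Both differences passed in all 14 alternative analyses, with log2 fold changes from -1.34 to -1.14 and from -1.56 to -0.85. For the step from untreated to Rspo1-negative cells the value, -0.32 (SE 0.21, edgeR adjusted p = 0.293), did not pass, and with an offset for GC content and transcript length it had the opposite sign, at 0.23 (adjusted p = 0.551).

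Between Rspo1-positive and untreated cells, Bambi was the single gene of the 10 that passed, where 5.21% of all genes tested passed, 3.07% as higher and 2.13% as lower. Groups did not overlap for 4 of the 10, Id1, Id2, Bambi and Tgfbr1, all lower in Rspo1-positive cells, where 23.2% of all genes did not overlap and 11.8% did so as lower. The median log2 fold change of the 10 genes was -0.32, against -0.01 for all genes tested, and 8 of the 10 values were below 0. With passage as a block, which pairs libraries of the same passage, 3 of the 10 passed, Id1, Id2 and Bambi, all lower. Of all 17011 genes tested, 2247 passed in that blocked fit, 1152 of them as lower.

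Id1, Id2 and Id3 encode proteins that bind and disable transcription factors of the basic helix-loop-helix family, and they are the textbook readout of BMP signalling. Id1 (ENSMUSG00000042745, chromosome 2, 152736251 to 152737410, plus strand) had 300.4, 254 and 269 CPM at passages 5, 6 and 10 of untreated cells. It had 277, 207 and 369 CPM in Rspo1-negative and 191, 124 and 245 CPM in Rspo1-positive cells. Every Rspo1-positive library lay below every untreated library, and Rspo1-negative libraries overlapped with both. Against untreated cells the log2 fold change was -0.55 (SE 0.26, edgeR adjusted p = 0.299) without a block for passage and -0.62 (edgeR adjusted p = 0.0329) with it. Against Rspo1-negative cells it was -0.60 (SE 0.26, edgeR adjusted p = 0.11), and with the block -0.62 (adjusted p = 0.0139). That blocked call was lost when an offset for GC content and transcript length was added (-0.30, adjusted p = 0.211).

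Id2 (ENSMUSG00000020644, chromosome 12, 25093799 to 25097140, minus strand) had 531, 443 and 565 CPM in untreated cells. It had 398, 260.4 and 429 CPM in Rspo1-negative and 333.5, 223 and 400.0 CPM in Rspo1-positive cells. Both Rspo1 groups lay below all untreated libraries and overlapped with each other, and within every passage the order was untreated, Rspo1-negative, Rspo1-positive. The difference from untreated cells was -0.69 (SE 0.24, edgeR adjusted p = 0.159) for Rspo1-positive and -0.50 (SE 0.24, adjusted p = 0.162) for Rspo1-negative cells. With the passage block both passed, at -0.72 (edgeR adjusted p = 0.0053) and -0.53 (adjusted p = 0.0124). The second was lost again with block and offset together (-0.37, adjusted p = 0.0756). Id3 (ENSMUSG00000007872, chromosome 4, 136143497 to 136145755, plus strand) overlapped between all groups, and its values are given by passage below. In Rspo1-positive against Rspo1-negative cells it differed by -0.77 (SE 0.50, edgeR adjusted p = 0.288), by the same amount with the block (adjusted p = 0.0033), and by -0.43 with block and offset (adjusted p = 0.0589).

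**Figure D2:**
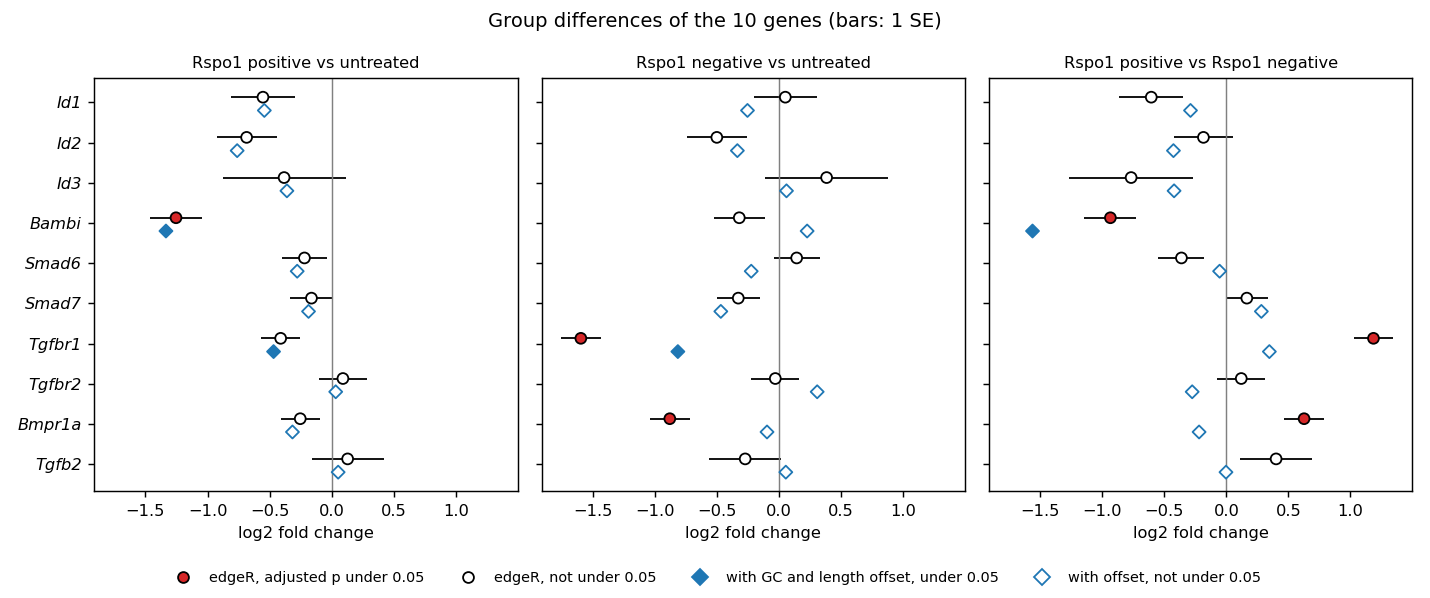
Log2 fold change of each gene in the 3 group comparisons: circles with bars of 1 SE show edgeR with TMM scaling, diamonds the same fit with an offset for GC content and transcript length, and filled symbols an adjusted p under 0.05. Bambi is filled under both in both comparisons of Rspo1-positive cells, while Bmpr1a moves from 0.63 to -0.22 between Rspo1-positive and Rspo1-negative cells.

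The type I receptors Tgfbr1 and Bmpr1a had their lowest CPM in the reporter-negative cells of Rspo1-treated organoids, a difference that Bmpr1a lost with the offset for GC content and transcript length. Of the other type I receptors, Acvr1 and Acvr1b differed by 0.01 and -0.02 on the log2 scale between Rspo1-negative and untreated cells (edgeR adjusted p = 0.976 and 0.944), and Acvrl1 was higher. Tgfbr1 (ENSMUSG00000007613, chromosome 4, 47353222 to 47414931, plus strand) had 48.0, 57.7 and 52.6 CPM in untreated cells. It had 17.8, 20.5 and 14.1 CPM in Rspo1-negative and 39.3, 36.1 and 43.7 CPM in Rspo1-positive cells. No 2 groups overlapped, with Rspo1-negative cells lowest and untreated cells highest. Between Rspo1-negative and untreated cells the log2 fold change was -1.60 (SE 0.16, 0.331-fold, edgeR adjusted p = 0.00099), lower in 3 of 3 passages. Rspo1-positive cells were above Rspo1-negative cells by 1.19 (SE 0.16, edgeR adjusted p = 0.00184) and differed from untreated cells by -0.41 (SE 0.16, adjusted p = 0.192).

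Bmpr1a (ENSMUSG00000021796, chromosome 14, 34410734 to 34503341, minus strand) had the same order of groups by mean. Its levels were 95.0, 113 and 80.5 CPM in untreated, 54.6, 56.7 and 45.3 CPM in Rspo1-negative and 89.9, 70.1 and 81.8 CPM in Rspo1-positive cells. Rspo1-negative libraries lay below all others, and the other two groups overlapped. Rspo1-negative libraries fell from the untreated level by 0.88 on the log2 scale (SE 0.16, edgeR adjusted p = 0.0046), and the excess of Rspo1-positive over Rspo1-negative cells was 0.63 (SE 0.16, adjusted p = 0.018). The second call was lost without Rspo1-negative replicate 3 (edgeR adjusted p = 0.0822), Rspo1-positive replicate 1 (0.0741) or Rspo1-positive replicate 3 (0.0534). Bmpr1a shares 4.57% of its exon bases with Gm17110 on the opposite strand, and the strand setting of the counts was not given, so those reads cannot be told apart.

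In Rspo1-negative against untreated cells, Tgfbr1 and Bmpr1a were the 2 of 10 genes that passed, where 21.9% of all genes passed and 13.9% passed as lower. Groups did not overlap for 4 of the 10, Id2, Bambi, Tgfbr1 and Bmpr1a, all lower, where 36.3% of all genes did not overlap and 20.0% did so as lower. In Rspo1-positive against Rspo1-negative cells 3 of 10 passed, Tgfbr1 and Bmpr1a higher and Bambi lower, where 24.3% of all genes passed, 14.6% as higher and 9.78% as lower. The same 3 genes had groups that did not overlap, where 45.2% of all genes did not. With the passage block 5 of 10 passed there, Id1 and Id3 lower in addition, where 6624 of all 17011 genes tested passed. With the offset alone Bambi was the single gene called of the 10, where 1382 of all genes were called.

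Fold changes of the Rspo1-negative libraries varied with GC content over all genes, and Tgfbr1, Bmpr1a and Bambi lie at the AT-rich end. Among all tested genes the median log2 fold change between Rspo1-negative and untreated cells rose from -0.65 in the lowest of 5 equal classes of GC content, up to 44.0%, to 0.26 in the highest, above 55.6%. In Rspo1-positive against untreated cells the medians of the same 5 classes were -0.02 to 0.02. The longest transcripts of Tgfbr1, Bmpr1a and Bambi hold 41.0%, 41.3% and 44.0% G and C over 5756, 5956 and 5074 bases, all in the lowest class. With the offset Bambi was lower in Rspo1-positive cells by -1.335 against untreated (edgeR adjusted p = 0.00492) and by -1.56 against Rspo1-negative cells (adjusted p = 0.00973), where it was -0.93 without. With the offset for GC content and length, Tgfbr1 kept its fall from untreated to Rspo1-negative cells, at -0.81 (edgeR adjusted p = 0.0071), while its excess in Rspo1-positive over Rspo1-negative cells was 0.35 (adjusted p = 0.102). With block and offset together that excess passed, at 0.35 (adjusted p = 0.0472). With the offset, Bmpr1a differed by -0.10 (adjusted p = 0.713) between Rspo1-negative and untreated cells and by -0.22 (adjusted p = 0.33) between the Rspo1 groups, the reverse of the sign without it. Tgfbr1 in Rspo1-positive against untreated cells was called with the offset, at -0.47 (adjusted p = 0.0456).

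**Figure D3:**
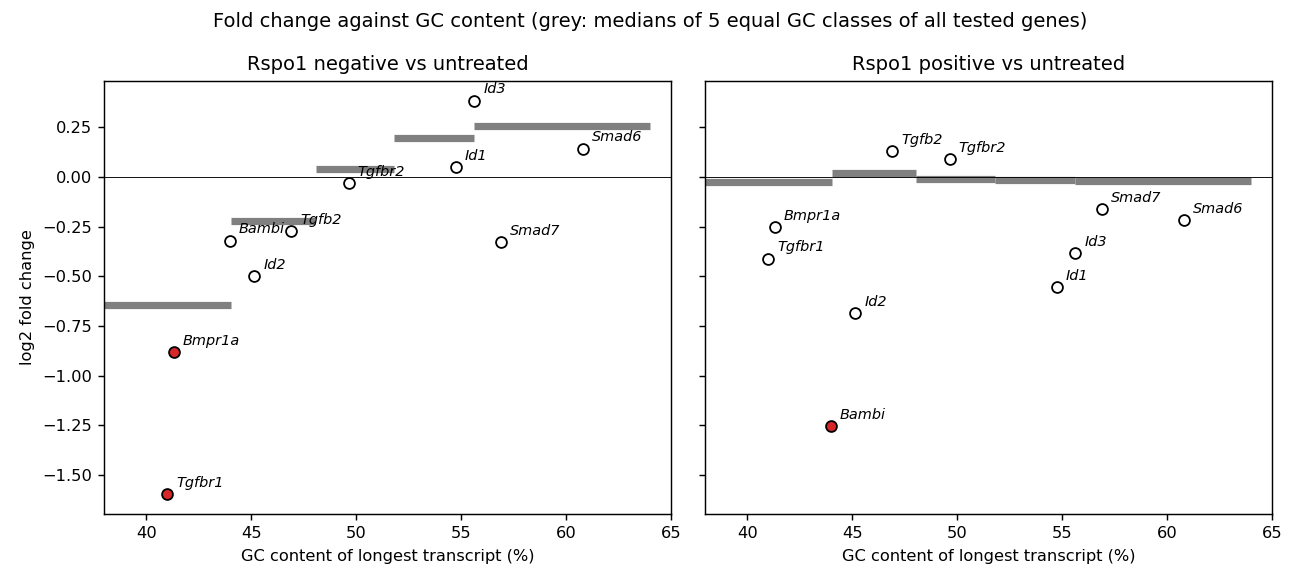
Log2 fold change against the GC content of each gene's longest transcript, for Rspo1-negative (left) and Rspo1-positive (right) against untreated cells; grey bars are medians of 5 equal classes of all tested genes by GC content, circles the 10 genes, filled where adjusted p was under 0.05 by edgeR. The grey medians climb from -0.65 to 0.26 on the left and range from -0.024 to 0.019 on the right, where Bambi lies at -1.25.

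The other 4 genes did not pass in any group comparison. Tgfbr2 (ENSMUSG00000032440, chromosome 9, 116084293 to 116175360, minus strand) ranged from 140.5 to 222 CPM over the 9 libraries, with log2 fold changes of 0.09, -0.03 and 0.12 for Rspo1-positive against untreated, Rspo1-negative against untreated and Rspo1-positive against Rspo1-negative cells. Smad6 (ENSMUSG00000036867, chromosome 9, 63953076 to 64022059, minus strand), which blocks mainly the BMP branch, ranged from 10.7 to 19.6 CPM, with -0.22, 0.14 and -0.36 in the same order. Smad7 (ENSMUSG00000025880, chromosome 18, 75367529 to 75395935, plus strand), which sends type I receptors for degradation, ranged from 21.6 to 35.4 CPM, with -0.16, -0.33 and 0.17. Its fall in Rspo1-negative against untreated cells passed with block and offset together (-0.47, edgeR adjusted p = 0.0155) and in none of its other 13 alternatives. Tgfb2 (ENSMUSG00000039239, chromosome 1, 186622792 to 186705989, minus strand) ranged from 3.09 to 7.19 CPM, with 0.13, -0.27 and 0.40. Groups of all 4 genes overlapped in every comparison. Tgfb2 shares 2.14% of its exon bases with Gm29491 on the opposite strand.

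Id3 changed between passages, and Id1, Id2, Id3, Tgfbr2 and Smad7 were lowest at passage 6 in every group. How many of all genes tested had that pattern was not counted. Id3 had 56.9, 24.0 and 47.4 CPM at passages 5, 6 and 10 of untreated cells. It had 65.1, 23.7 and 78.7 CPM in Rspo1-negative and 37.0, 14.0 and 47.3 CPM in Rspo1-positive cells. The passage 6 library was the lowest of each group, and all 3 passage 6 libraries lay below all 6 others. In a fit of group and passage, Id3 fell from passage 5 to 6 by 1.36 on the log2 scale (SE 0.16, edgeR adjusted p = 0.002). It was higher at passage 10 than at passage 6 by 1.495 (SE 0.16, edgeR adjusted p = 0.00065). Both differences had the same direction in 3 of 3 groups and passed in all 14 alternatives.

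From passage 5 to 6 Id1 and Id2 differed by -0.42 (edgeR adjusted p = 0.25) and -0.48 (adjusted p = 0.101), lower in 3 of 3 groups, and did not pass. From passage 6 to 10 Id1 rose by 0.64 (SE 0.17, edgeR adjusted p = 0.0397) and Id2 by 0.63 (SE 0.14, adjusted p = 0.0179). Tgfbr2 had 157, 140.5 and 154 CPM at passage 6 of untreated, Rspo1-negative and Rspo1-positive cells, and differed by -0.19 from passage 5 to 6 (edgeR adjusted p = 0.562) and by 0.45 from 6 to 10 (adjusted p = 0.0600), called in 4 of 14 alternatives. Smad7 had 26.1, 21.6 and 22.3 CPM there, and differed by -0.36 (edgeR adjusted p = 0.164) and 0.29 (adjusted p = 0.175). The call of Id1 was lost with the offset (edgeR adjusted p = 0.0558). It was also lost without Rspo1-negative replicate 1 (0.0724), 2 (0.104) or 3 (0.167), Rspo1-positive replicate 1 (0.0701), 2 (0.185) or 3 (0.19), or untreated replicate 1 (0.0659). That of Id2 was lost without Rspo1-negative replicate 2 (edgeR adjusted p = 0.0563) or 3 (0.0815), or Rspo1-positive replicate 2 (0.103) or 3 (0.114). Counted over the 10 genes, 1 passed from passage 5 to 6, as lower, where 2.49% of all genes passed and 1.33% did so as lower. From passage 6 to 10, 3 passed as higher, where 8.45% passed and 4.40% did so as higher. Between passages 5 and 10, 0 of 10 passed by edgeR or by DESeq2, where 9.07% of all genes passed, and 1 of 10, Tgfb2, had an unadjusted p under 0.05 by either tool (by edgeR 0.63, adjusted p = 0.0769, higher in 3 of 3 groups). Of the 10 proliferation genes, 7 passed as higher at passage 6 than at 5, with a list median of 1.06 on the log2 scale. Pcna went the other way, from 35.9 to 30.4 FPKM in untreated, 60.0 to 32.4 in Rspo1-negative and 59.5 to 43.4 in Rspo1-positive cells. Mcm2 fell in both Rspo1 groups, from 32.5 to 19.7 FPKM in Rspo1-negative and 34.3 to 23.0 FPKM in Rspo1-positive cells. The part of proliferation genes in the fall of Id3 was not tested. With 1 library per group and passage, passage and culture day cannot be told apart.

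**Figure D4:**
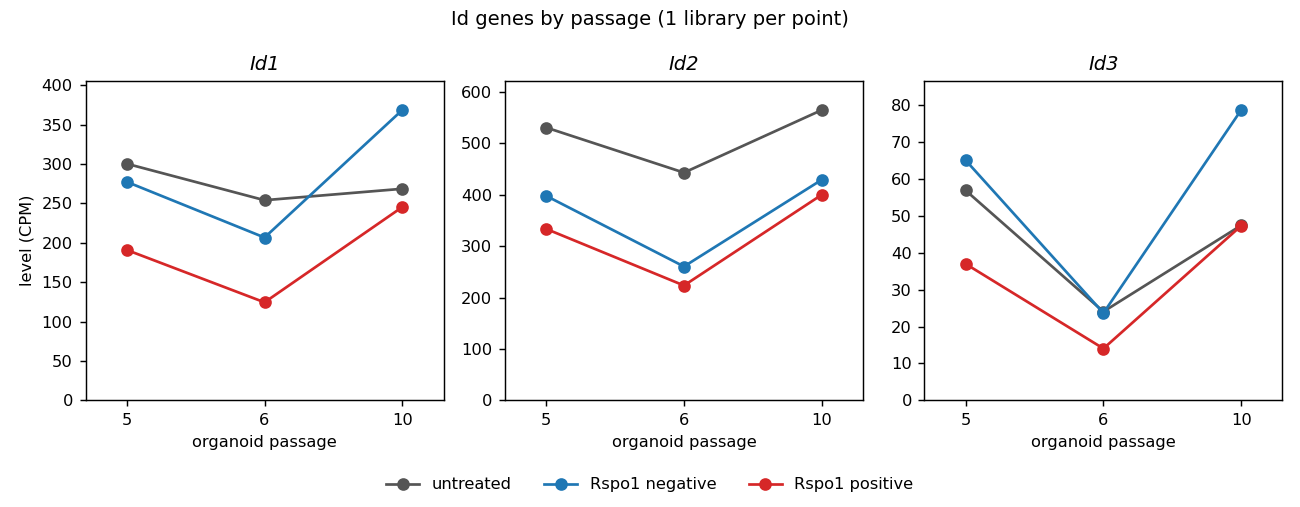
Levels of Id1, Id2 and Id3 in CPM at passages 5, 6 and 10, 1 library per point, with lines joining the libraries of a group; the passage axis is not to scale. Each line has its lowest point at passage 6, and Id3 reaches 14.0 to 24.0 CPM there against 37.0 to 78.7 CPM at the other passages.

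Around the 10 genes, 90 other ligands, receptors, Smads, modulators and targets had been listed, of which 66 were tested, 21 were below the filter and 3 were not analysed here. By edgeR, 25 of the 66 passed in at least 1 group comparison, making 43 calls, of which 11 held in every alternative and 22 were lost without at least 1 library. For Rspo1-positive against untreated cells 11 of the 66 passed, 5 higher and 6 lower, where 5.21% of all genes tested passed. For Rspo1-positive against Rspo1-negative cells 14 passed, 8 higher and 6 lower, where 24.3% of all passed. For Rspo1-negative against untreated cells 18 passed, 6 higher and 12 lower, where 21.9% of all passed. The first count fell to 5 without Rspo1-positive replicate 2, 7 without Rspo1-positive replicate 3 and 6 without untreated replicate 1. The second fell to 8 without Rspo1-negative replicate 1, 8 without Rspo1-positive replicate 2 and 9 without Rspo1-negative replicate 3, and the third to 10 without Rspo1-negative replicate 3 and 11 without untreated replicate 1. With the passage block the first was 19 and the second 23, where 2247 and 6624 of all genes passed. With the GC and length offset the second was 3 and the third 11, where 1382 and 1322 of all genes passed.

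Among ligands, 14 of 23 were tested, and 3 passed in Rspo1-positive against untreated cells, 1 higher and 2 lower, where 5.21% of all genes passed. Tgfb3, a TGF-beta isoform, had 10.35, 25.97 and 15.65 FPKM in untreated libraries. It had 42.4, 63.6 and 62.4 FPKM in Rspo1-negative and 43.6, 58.3 and 58.8 FPKM in Rspo1-positive libraries. Both Rspo1 groups lay above all untreated libraries, by 1.66 (SE 0.31, edgeR adjusted p = 0.0049) and 1.63 (SE 0.31, adjusted p = 0.0118), and both calls held in all alternatives. Bmp6, the BMP that controls hepcidin in the liver, ran the other way, with 41.5, 31.7 and 30.7 FPKM in untreated, 20.25, 15.05 and 16.8 in Rspo1-negative and 14.0, 6.61 and 8.80 in Rspo1-positive libraries. From untreated to Rspo1-positive cells Bmp6 changed by -1.82 (SE 0.25, 0.283-fold, edgeR adjusted p = 0.0024, held in all alternatives). The intermediate step from untreated to Rspo1-negative cells was -1.03 (SE 0.25, adjusted p = 0.015), lost without Rspo1-negative replicate 2 (0.0517) or 3 (0.0614) or untreated replicate 1 (0.0529).

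Inhbb, the beta-B chain of activins and inhibins, was 18.65 ± 2.44 FPKM (SD, n = 3) in untreated, 16.8 ± 4.10 in Rspo1-negative and 9.16 ± 1.09 in Rspo1-positive cells. Its fall against untreated cells was -1.03 (SE 0.20, edgeR adjusted p = 0.0136; 0.0649 without Rspo1-positive replicate 2), and against Rspo1-negative cells -0.84 (SE 0.20, adjusted p = 0.0134; 0.0541 with the offset). Inhba, the beta-A chain, was rare, at 0.412 ± 0.0547, 0.139 ± 0.079 and 0.42 ± 0.0171 FPKM in the 3 groups in that order. Its low level in Rspo1-negative cells passed against both others but not with the offset (adjusted p = 0.233 for each by edgeR). Against untreated cells it was also lost without Rspo1-negative replicate 3 (0.0576).

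Extracellular modulators, which trap ligands or hold them in the matrix, moved in both directions: 6 of 13 tested passed in Rspo1-positive against untreated cells, 3 higher and 3 lower, where 5.21% of all genes passed. Fst, follistatin, which binds and neutralises activins, had 0.437, 0.607 and 0.252 FPKM in untreated libraries, from 26 to 54 counts each. It had 1.37, 1.91 and 1.44 FPKM in Rspo1-negative and 2.15, 4.32 and 2.94 FPKM in Rspo1-positive libraries, with no overlap between any groups. The rise in Rspo1-positive over untreated cells was 2.85 on the log2 scale (SE 0.37, 7.24-fold, edgeR adjusted p = 0.00173), and in Rspo1-negative over untreated cells 1.83 (SE 0.36, adjusted p = 0.0066); both held in all alternatives. Thbs1, thrombospondin 1, an activator of latent TGF-beta, rose from 17.8 ± 1.23 FPKM (SD, n = 3) in untreated to 47.2 ± 7.06 FPKM in Rspo1-positive cells, by 1.40 (SE 0.18, edgeR adjusted p = 0.00176, held in all alternatives). Chrdl2, a chordin-like BMP antagonist, was the one listed gene whose fall, like that of Bambi, set Rspo1-positive cells apart from both other groups in every alternative. It had 6.88, 7.19 and 6.66 FPKM in untreated, 6.04, 8.04 and 7.99 in Rspo1-negative and 3.20, 2.91 and 2.17 in Rspo1-positive libraries. The log2 fold change of Chrdl2 was -1.33 against untreated cells (SE 0.20, edgeR adjusted p = 0.0032). Relative to Rspo1-negative cells it was -1.39 (SE 0.20, edgeR adjusted p = 0.002).

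The latent TGF-beta binding proteins, which anchor inactive TGF-beta in the matrix, differed among themselves. Ltbp1 was 5.11 ± 1.66 FPKM (SD, n = 3) in untreated, 1.37 ± 0.427 in Rspo1-negative and 1.35 ± 0.832 in Rspo1-positive cells. Its fall passed in all alternatives for Rspo1-negative cells (-1.94, SE 0.42, edgeR adjusted p = 0.0102). For Rspo1-positive cells it was -1.92 (SE 0.42, adjusted p = 0.0244), lost without Rspo1-positive replicate 2 (0.139) or 3 (0.0572) or untreated replicate 1 (0.0842). Ltbp3, the most abundant of them, was 98.9 ± 9.30, 102 ± 10.4 and 64.3 ± 5.31 FPKM in the 3 groups, and its fall against Rspo1-negative cells was -0.63 (SE 0.15, edgeR adjusted p = 0.0134; 0.0591 without Rspo1-positive replicate 1). Ltbp4 rose from untreated to Rspo1-negative cells by 0.80 (SE 0.17, edgeR adjusted p = 0.0095), in all alternatives.

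**Figure D5:**
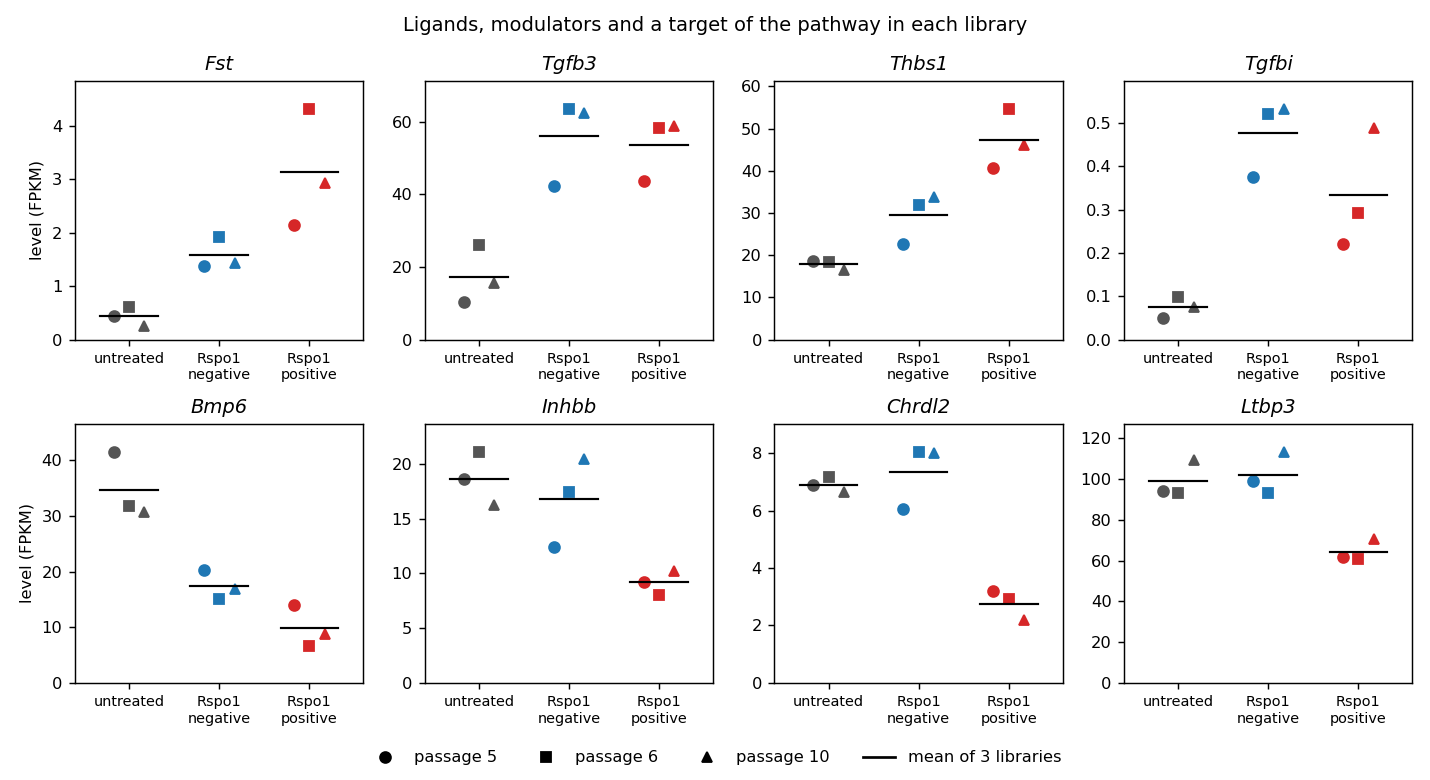
Levels in FPKM, on linear axes from 0, of 8 pathway genes outside the 10, in every library by group, with marker shapes for passage and black lines for the mean of 3 libraries. Fst, Tgfb3, Thbs1 and Tgfbi lie higher in the Rspo1 groups than in untreated cells, and Bmp6, Inhbb, Chrdl2 and Ltbp3 are lowest in Rspo1-positive cells by mean.

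Of other receptors, receptor-activated and common Smads and intracellular modulators, 10, 6 and 13 were tested, and 0 passed in Rspo1-positive against untreated cells by edgeR or by DESeq2. Of all genes tested, 5.21% passed there by edgeR. By edgeR 1 of each list had an unadjusted p under 0.05 there, and by DESeq2 1, 1 and 2. In Rspo1-negative against untreated cells 3 of the 10 other receptors passed, 1 higher and 2 lower, where 21.9% of all genes passed, 13.9% as lower. The higher one was Acvrl1, a type I receptor best known from endothelial cells, at 1.40 ± 0.406 FPKM (SD, n = 3) in untreated, 2.98 ± 0.999 in Rspo1-negative and 1.85 ± 0.454 in Rspo1-positive cells. Its difference of 1.055 (SE 0.31, edgeR adjusted p = 0.0356) was lost with the offset (0.102), with the 6 libraries alone (0.0583) and without Rspo1-negative replicate 3 (0.111) or untreated replicate 1 (0.112) or 2 (0.0654). In Rspo1-negative cells the type II receptors Acvr2a and Bmpr2, the Smad repressor Skil and the ubiquitin ligase Wwp1 were lower than in untreated cells, by -1.36, -1.53, -1.31 and -1.36 (SE 0.18, 0.18, 0.20 and 0.21; adjusted p = 0.0013, 0.00099, 0.0021 and 0.0024 by edgeR). All 4 calls held without any 1 library. With the offset they were -0.50, -0.46, -0.48 and -0.43, and none passed (adjusted p = 0.0883, 0.0555, 0.0773 and 0.204 by edgeR), although block and offset together called all 4. Rspo1-positive cells had higher levels of these 4 than Rspo1-negative cells, by 0.97 to 1.31, and with the offset these differences were 0.06 to 0.20 and none passed.

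Among 10 tested target genes outside the 10, 2 passed in Rspo1-positive against untreated cells, 1 in each direction, where 5.21% of all genes passed. Tgfbi, a matrix protein gene induced by TGF-beta, was rare, with 5 to 54 counts per library. It was 0.0748 ± 0.0239 FPKM (SD, n = 3) in untreated, 0.476 ± 0.0874 in Rspo1-negative and 0.333 ± 0.139 in Rspo1-positive cells. It rose in Rspo1-negative cells by 2.62 on the log2 scale (SE 0.45, 6.13-fold, edgeR adjusted p = 0.0036, held in all alternatives). In Rspo1-positive cells the rise was 2.14 (SE 0.45, adjusted p = 0.0199), lost without Rspo1-positive replicate 2 (0.0509) or 3 (0.0808) or untreated replicate 1 (0.0807). Cdkn2b, the cell-cycle inhibitor p15, was 0.682-fold in Rspo1-positive cells (edgeR adjusted p = 0.0337), a call lost in 5 of the 6 fits without 1 library.

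For each of the 10 genes, the gene outside the lists with the most similar profile was sought by the root mean square difference of centred log2 CPM over the 9 libraries. The closest matches were Slc5a10 for Smad6, at 0.0586 against a spread of Smad6 itself of 0.224, and Ibtk for Bmpr1a, at 0.0654 against 0.402. Bag5 lay at 0.0706 from Tgfbr2, Hbegf at 0.0756 from Smad7 and Arhgap12 at 0.0873 from Tgfbr1, whose own spread was 0.699. Prss22 lay at 0.13 from Id2, Akr1b8 at 0.139 from Id1, Vangl1 at 0.163 from Tgfb2, Stom at 0.168 from Bambi and Clic3 at 0.19 from Id3, whose spread was 0.76.

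In the authors' deposited tables of their own comparisons, 15807 genes were listed. The authors' deposited table for Rspo1-positive against untreated cells calls 3 of the 10 genes at an adjusted p under 0.05, where 13.9% of all its genes are called. They are Bambi (log2 fold change -1.26, adjusted p = 0.000164 in the authors' deposited table), Id2 (-0.71, 4.74e-06) and Id1 (-0.60, 0.00399). The authors' deposited table for Rspo1-positive against Rspo1-negative cells calls 6 of 10, where 44.1% of all are called, and the authors' deposited table for Rspo1-negative against untreated cells calls 3 of 10, where 27.0% are called. The 3 comparisons share groups, here and above, so their values are not independent of each other.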

How the data were processed

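RNA was measured in 9 libraries of sorted organoid cells from 1 mouse. The authors deposited raw counts and FPKM per gene, per the file headers, and comparison tables with mean normalized signal, log2 fold change, a test score and p-value per gene. The submitters' processing notes name Trimmomatic 0.35, FastQC 0.11.2, STAR 2.5.1b, featureCounts, DESeq2 and GRCm38, with no roles; strand setting and annotation were not given in the sources used here. Deposited counts were tested in edgeR 4.0.16 (R 4.3.3): filterByExpr (minimum count 10), TMM, a fit of group over all 9 libraries, quasi-likelihood F-test, Benjamini-Hochberg over 17011 genes, threshold 0.05; passages were tested with group in the fit. SE is the log2 fold change divided by the square root of F. FPKM served for levels only. Alternatives were other scalings, DESeq2 1.42.0, no filter, 6 libraries, a passage block, a GC and length offset (splines with 4 degrees of freedom; GENCODE transcripts), and each library left out. Same-passage libraries, paired by the labels' passages, deviated together (r 0.123 to 0.573 in 9 pairs; -0.476 to 0.0826 in 18 others). P-values measure the spread between cultures, not animals; replicates differed far beyond counting noise (chi-square per gene 57.8 to 534). The genes, lists and tests were chosen with earlier results of these data known. Named genes were the 10, listed pathway genes passing in a group comparison, nearest profiles and Axin2. Values of 1 listed pathway gene are not reported here, though counts over the lists include it. The script was tested on simulated data.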

Additional observations from a re-analysis of the deposited data

How the results depend on the processing

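Each result had 14 alternatives. Counts over all genes are given further below. Bambi (2 comparisons), Tgfbr1 in Rspo1-negative against untreated cells and Id3 between passages 5 and 6 and between 6 and 10 passed in all of them. Of the 10 genes, in Rspo1-positive against untreated cells 1 passed; 2 did with the GC and length offset, 2 with no filter, 3 with the replicate block and 4 with block and offset, and 1 without any library. In Rspo1-positive against Rspo1-negative cells 3 passed; 1 with the offset, 5 with no filter, 5 with the replicate block, and 2 to 4 without 1 library. In Rspo1-negative against untreated cells 2 passed, 1 with the offset. For passages 10 against 5, 0 passed, and 0 to 1 without 1 library. For passages 6 against 5, 1 passed; 2 with DESeq2, 2 with no filter and 1 to 3 without 1 library. For passages 10 against 6, 3 passed, and 1 to 4 without 1 library, with 1 without Rspo1-negative replicate 2 or 3 or Rspo1-positive replicate 2 or 3. Of the 66 pathway genes, the 3 group comparisons in that order gave 11, 14 and 18: the 6 libraries alone gave 6 for the first, the offset 3 and 11 for the latter 2, the replicate block 19 and 23 for the first and second, block and offset 23 for the first, and leaving out 1 library 5 to 10, 8 to 13 and 10 to 16.

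Among differences that passed with or without them, signs reversed with the offset or with replicate block and offset for Bmpr1a (-0.22 in both) and Smad5 (-0.11 in both) in Rspo1-positive against Rspo1-negative cells, Nedd4l (-0.44) and Smad2 (-0.34) there with both, and Nedd4l (0.15 with the offset, 0.14 with both) and Smad2 (0.18 and 0.17) in Rspo1-negative against untreated cells, and Ppm1a there with both (from -0.15 to 0.57); the cause was not tested. Of the 10 genes, differences that passed under none of these also changed sign: Bambi (0.23 with the offset, 0.22 with both), Id1 (-0.25, -0.30), Smad6 (-0.22, -0.23), Tgfbr2 (0.31, 0.26), Tgfb2 (0.05, 0.01) and, with both, Id3 (-0.02) in Rspo1-negative against untreated cells, and Tgfbr2 (-0.275, -0.25) and, with the offset, Tgfb2 (-0.0028) in Rspo1-positive against Rspo1-negative cells. Over all genes 886, 4141 and 3724 passed in the 3 group comparisons. The replicate block gave 2247, 6624 and 6039, and block and offset 2709 for the first. DESeq2 gave 1506 for the first, and no filter 1446 and 4273 for the first and second. The offset gave 1016, 1382 and 1322 in the 3 comparisons, and 6 libraries 2234 for the last. Leaving out 1 library gave 384 to 909, 2109 to 4123 and 1935 to 3825. In Rspo1-negative against untreated cells, 1361 were higher and 2363 lower, against 2016 and 2054 with upper-quartile scaling. Passages 10 against 5, 6 against 5 and 10 against 6 gave 1543, 423 and 1438, with no filter 2784, 1193 and 2456, with DESeq2 851 for the second, and without 1 library 382 to 3550, 92 to 826 and 546 to 1458. Depth limits Tgfbi (5 to 54 counts per library), Inhba (12 to 115), Fst (26 to 375), Bambi (68 to 245) and Tgfb2 (97 to 257).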
